A study of Mus musculus with 24 samples.

Results

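The genes described here are the 3 VEGF receptor genes Kdr, Flt1 and Flt4, the 2 neuropilin genes Nrp1 and Nrp2, and the ligand genes Vegfa and Vegfc, 7 of the 20665 protein-coding genes analysed on chromosomes 1 to 19. They were chosen by name because together they form the VEGF ligand and receptor system, and for each gene every peak that overlapped the mm10 gene body or the 5000 bp on either side was taken. The peaks come from lung endothelial cells sorted by flow cytometry from Dnmt3a knockout mice (KO) and from wild-type mice (WT); DNMT3A sets new methyl groups on DNA. ACT-seq, in which an antibody guides the transposase Tn5 to cut and tag nearby DNA, was done for H3K4me3 (a mark of promoters), H3K27ac (active promoters and enhancers), H3K4me1 (enhancers and promoter flanks) and H3K27me3 (the Polycomb mark of silenced genes). Each of the 8 combinations of genotype and mark had 3 samples. The labels give the genotype only as knockout or wild type and do not say how or in which cells Dnmt3a was deleted, nor the age of the mice, and nothing in them says whether the samples came from separate animals.

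The authors deposited 1 peak list for the 3 samples of a group, with positions and widths only. No peak height, depth or value per sample was therefore available, and no test between the genotypes was possible: each difference below is one between 2 lists. Each interval is an exact binomial (Clopper-Pearson) interval at 95%, which covers counting error only. The lists differ in length. H3K4me3 had 22724 peaks in KO and 14984 in WT, H3K27ac 44484 and 81112, H3K4me1 48458 and 49363, and H3K27me3 31022 and 20918, so each count over the 7 genes is set beside that over all genes. Of 10 endothelial marker genes, 9 in KO and 8 in WT had H3K4me3 within 1000 bp of an annotated gene end, and 9 in each genotype had H3K27ac. None of 7 leukocyte markers had H3K4me3, H3K27ac or H3K4me1 there in either genotype. H3K4me3 was listed at 4 of 7 epithelial markers in KO and 1 of 7 in WT, with 3132 and 2317 bp covered over the whole list. It was at 2 of 8 mesenchymal and mural markers in KO (Acta2 and Col1a2) and 0 of 8 in WT, with 1077 and 161 bp. Of all genes with H3K4me3 at an end, 13.0% had it in KO only. H3K27ac was at 4 of 7 epithelial markers in KO and 3 of 7 in WT, with 3594 and 4946 bp. It was at 0 of 8 mesenchymal and mural markers in KO and 1 of 8 in WT, with 679 and 1592 bp. Of 3 lymphatic endothelial markers, 1 in KO and 2 in WT had H3K4me3 there, and 2 in each genotype had H3K27ac. Whether epithelial, mesenchymal or mural cells contribute to the peaks below was not tested. The Dnmt3a gene itself held 8 H3K4me3 peaks in KO and 5 in WT, and peak lists cannot show the deletion.

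VEGF-A binds the receptor tyrosine kinases VEGFR1 (encoded by Flt1) and VEGFR2 (Kdr) on endothelial cells. VEGFR2 carries most of the growth, migration and permeability signal, whereas VEGFR1 binds the ligand tightly, signals weakly and acts largely as a decoy. VEGF-C acts mainly through VEGFR3 (Flt4), best known for the growth of lymphatic vessels, and the neuropilins are co-receptors that also bind class 3 semaphorins. In the lung, VEGF-A from the epithelium maintains the alveolar capillaries.

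All 7 genes had listed H3K4me3 and H3K27ac peaks at their start in both genotypes. Starts were taken from the RefSeq promoter table (GRCm38.p6, the assembly of mm10), which held all 7 genes and 16457 protein-coding genes in all, and a mark was counted at a start if a peak lay within 1000 bp. Of all listed starts, 54.2% had H3K4me3 in either genotype, 53.1% H3K27ac, 48.8% H3K4me1 and 45.2% H3K27me3. Among genes with the mark at the start in either genotype, 87.2% had H3K4me3 in both and 88.1% had H3K27ac in both. H3K4me1 was at the start of Kdr and Flt1 in both genotypes and of Nrp2 in WT only (of all genes with the mark there, 75.0% had it in both, 4.13% in KO only and 20.9% in WT only). H3K27me3 was at the starts of Flt1, Nrp2, Vegfa and Vegfc in both genotypes, as at 75.1% of genes with that mark, and at those of Kdr, Flt4 and Nrp1 in neither. Some of these calls rest on narrow peaks: with peaks under 200 bp left out, H3K27ac was at 6 starts in KO, without that of Vegfa (192 bp), and H3K27me3 at 3 starts in WT, again without that of Vegfa (112 bp). With equal numbers of the widest peaks, H3K27me3 was at 3 starts in KO.

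The promoters were taken as 250 bases before to 50 bases from the start. All 7 overlap H3K4me3 in both genotypes, and 5 are shown as examples whose other marks and CpG content differ. CpG, the dinucleotide whose cytosine DNMT3A methylates, is in capitals, and each sequence is that of the coding strand, 5′ to 3′, from RefSeq. Kdr, shown for a start without H3K27me3, is at chr5:75978406-75978705, minus strand. Flt1 is at chr5:147725962-147726261, minus strand, Nrp2 at chr1:62703067-62703366, plus strand, Vegfa at chr17:46032328-46032627, minus strand, and Vegfc, shown for a start wholly under H3K27me3, at chr8:54077282-54077581, plus strand.
Kdr: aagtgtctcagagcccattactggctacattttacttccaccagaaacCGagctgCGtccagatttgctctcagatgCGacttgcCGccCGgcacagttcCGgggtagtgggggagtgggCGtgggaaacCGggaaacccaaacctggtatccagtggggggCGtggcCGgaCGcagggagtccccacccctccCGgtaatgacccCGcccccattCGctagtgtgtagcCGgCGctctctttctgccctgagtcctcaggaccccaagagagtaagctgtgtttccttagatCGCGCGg
Flt1: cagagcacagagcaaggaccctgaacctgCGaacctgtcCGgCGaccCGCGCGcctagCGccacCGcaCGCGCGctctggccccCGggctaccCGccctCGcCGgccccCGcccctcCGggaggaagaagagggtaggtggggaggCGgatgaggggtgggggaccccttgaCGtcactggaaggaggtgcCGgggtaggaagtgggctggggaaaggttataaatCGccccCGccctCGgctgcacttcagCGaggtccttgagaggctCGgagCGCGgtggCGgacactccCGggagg
Nrp2: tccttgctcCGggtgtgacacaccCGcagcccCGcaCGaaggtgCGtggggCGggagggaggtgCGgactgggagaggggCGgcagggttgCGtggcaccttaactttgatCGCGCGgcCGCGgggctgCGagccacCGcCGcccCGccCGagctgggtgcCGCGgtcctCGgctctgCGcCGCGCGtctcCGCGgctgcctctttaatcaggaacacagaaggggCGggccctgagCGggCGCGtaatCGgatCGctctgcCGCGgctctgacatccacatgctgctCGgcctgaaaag
Vegfa: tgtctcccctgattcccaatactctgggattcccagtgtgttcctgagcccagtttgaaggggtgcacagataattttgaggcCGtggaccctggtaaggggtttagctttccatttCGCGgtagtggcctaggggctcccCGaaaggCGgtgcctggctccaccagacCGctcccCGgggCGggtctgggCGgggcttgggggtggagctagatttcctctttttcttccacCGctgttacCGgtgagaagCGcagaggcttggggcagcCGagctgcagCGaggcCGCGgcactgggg
Vegfc: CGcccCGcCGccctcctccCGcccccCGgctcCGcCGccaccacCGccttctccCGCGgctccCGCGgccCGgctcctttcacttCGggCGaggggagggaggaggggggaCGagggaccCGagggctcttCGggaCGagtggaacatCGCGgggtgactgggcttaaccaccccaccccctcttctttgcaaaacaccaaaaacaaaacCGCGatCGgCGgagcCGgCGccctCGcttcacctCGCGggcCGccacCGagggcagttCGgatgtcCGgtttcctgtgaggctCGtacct

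These promoters ranged widely in CpG content. Nrp2 had 37 CpG, Vegfc 35, Flt1 29, Flt4 26, Kdr 19, Vegfa 16 and Nrp1 14, against a median of 14 over 16457 promoters of the same length. The 4 genes with H3K27me3 at the start were Nrp2, Vegfc and Flt1, the most CpG-rich of the 7, and Vegfa, with 16. The WT peak of H3K27me3 at the Vegfa start was only 112 bp wide. Flt4, Kdr and Nrp1 had no H3K27me3 at the start. Whether CpG content and the mark were related was not tested. The GC box GGGCGG, a site of Sp1-family factors, was found on either strand in all 7 promoters, with 5 copies in Nrp2 (of which 1 pair overlapped), 3 each in Flt1 and Flt4, 2 each in Kdr, Vegfa and Vegfc and 1 in Nrp1. It occurred in 47.3% of all promoters. TATAAA was found in Flt1 alone of the 7, beginning at position -31 with the start as 0, and in 13.5% of all promoters. AGATAA occurred in Vegfa (9.87% of all promoters), while CCGGAAGT (5.46%) and ACGTG (21.0%) had no match in the windows of these 7 starts. No match of one motif overlapped a match of another. A second listed start of Vegfa, at 46025163 inside the gene, had 10 CpG, 1 GC box beginning at position -158, 1 ACGTG at -211 and no peak of any mark over its 300-base window in either genotype.

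H3K4me3 covered more of the start in KO at 6 of the 7 genes, and Kdr was the exception. Within 1000 bp of the start, Nrp1 had 1229 bp of H3K4me3 in KO and 455 bp in WT. Vegfa had 1279 bp in KO and 905 bp in WT, and Flt4 1489 and 1137 bp. The differences at the other genes were smaller, with KO over WT ratios of 1.16 at Flt1, 1.11 at Nrp2, 1.05 at Vegfc and 0.942 at Kdr (1008 bp in KO and 1070 bp in WT). The direction was common to the genome, since 77.4% of all genes with H3K4me3 at the start had more in KO, and the median ratio was 1.16 over the 7 genes and 1.17 over 7776 genes with the mark in both. At Nrp1 both genotypes had 2 peaks there, of 920 and 428 bp in KO and of 387 and 170 bp in WT, and each KO peak overlapped a WT peak.

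H3K27ac at the start ran the other way at 5 of the 7 genes. Vegfa had 192 bp in KO and 851 bp in WT, a ratio of 0.226, and Flt4 had 639 bp in KO, in 2 peaks of 409 and 230 bp, and 1474 bp in WT, in 1 peak. Kdr had 452 bp in KO and 777 bp in WT, Nrp1 630 and 1050 bp, and Flt1 1281 and 1482 bp. Only Nrp2 (579 bp in KO, 460 bp in WT) and Vegfc (1658 and 1634 bp) had more in KO. Of all genes with H3K27ac at the start, 65.1% had less in KO, and the median ratio was 0.60 over the 7 genes and 0.917 over 7693 genes. At 4 of the 7 genes, Flt1, Flt4, Nrp1 and Vegfa, more H3K4me3 in KO stood with less H3K27ac at the same start, and 48.4% of the 7138 genes with both marks at the start in both genotypes had this combination.

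**Figure D1:**
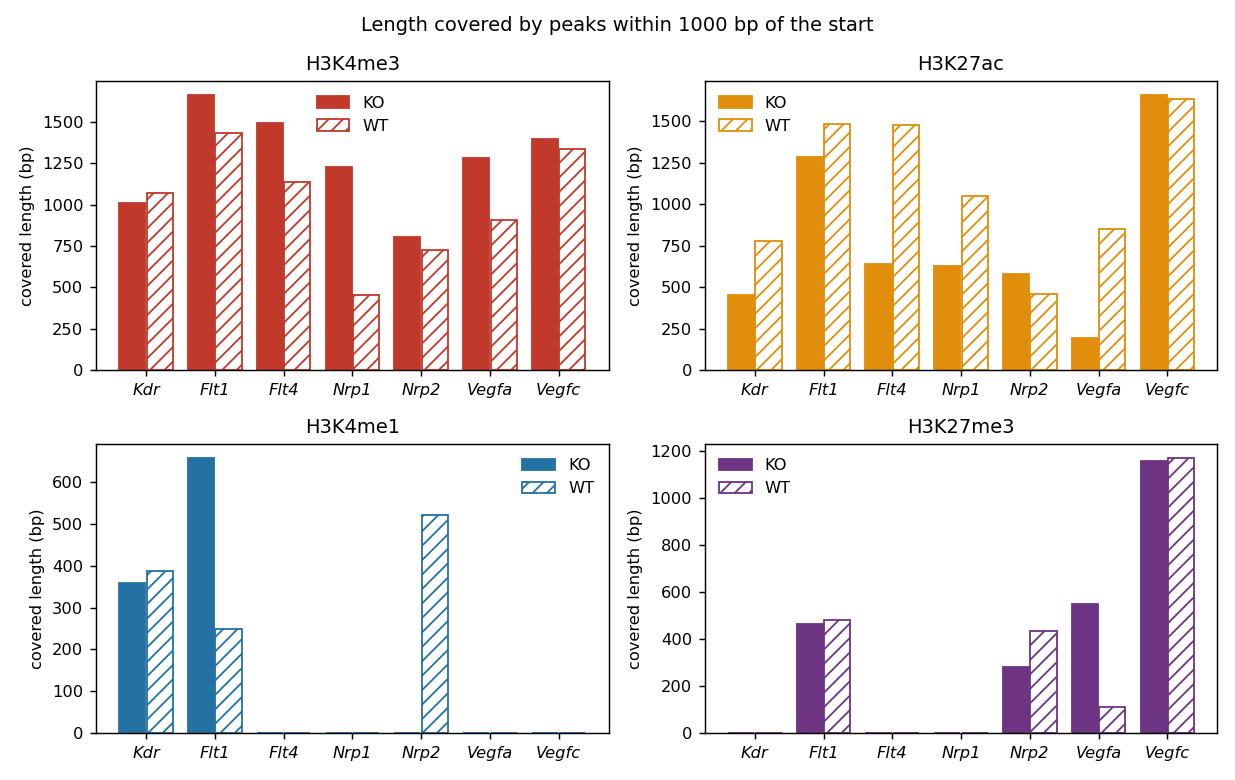
Length covered by peaks within 1000 bp of the start of each gene (vertical axis, bp), with 1 panel a mark and filled bars for KO left of hatched bars for WT. H3K4me3 is higher in KO at 6 of 7 genes and H3K27ac is lower in KO at 5 of 7, with 192 bp in KO against 851 bp in WT at Vegfa.

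Kdr, at chr5:75932827-75979072 on the minus strand, was densely marked for enhancers and carried no H3K27me3 peak in either genotype. It held 10 H3K4me1 peaks in KO and 9 in WT, of which 8 in each list were shared, that is, overlapped a peak of the other genotype by at least 1 bp. Of 10 H3K4me1 regions away from listed starts, 6 had both H3K4me1 and H3K27ac in both genotypes, centred 3.65, 7.98, 15.9, 30.6, 36.4 and 44.6 kb into the gene. An endothelial enhancer in the first intron of Kdr is known from transgenic mice. The gene table used here has no exons, so whether the region at 3.65 kb is that enhancer was not determined.

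The genotypes differed over Kdr in where small H3K4me3 peaks lay. KO alone had H3K4me3 of 595 bp centred at 16.2 kb and of 381 bp at 44.6 kb, near the far end of the gene, both on regions with H3K4me1 and H3K27ac in both genotypes. WT alone had H3K4me3 of 382 bp at 3.69 kb, on the region centred at 3.65 kb. That region, at chr5:75974519-75975095, was the only one away from starts over the 7 genes with H3K4me3 in WT only, a state found at 0.872% of all such regions. The remaining KO-only H3K4me3 peak, at 2.19 kb, was 106 bp wide and lay on no other mark. H3K27ac gave 7 peaks in KO and 9 in WT, covering 3993 and 4196 bp. The KO-only H3K27ac peak of 754 bp at 8.13 kb began 38 bp from a WT peak of 96 bp, so both lists marked that region.

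Flt1, at chr5:147561604-147726438 on the minus strand, is the longest of the 7 genes and had the most enhancer peaks. It held 23 H3K4me1 peaks in KO and 23 in WT, with 17 and 20 shared, and they covered 13622 bp in KO and 9881 bp in WT. Of its 24 regions away from starts, 10 had H3K4me1 and H3K27ac in both genotypes. KO alone had H3K4me3 on 4 of those 10 regions, in peaks of 220 bp at 4.36 kb, 338 bp at 68.0 kb, 237 bp at 106 kb and 176 bp at 136 kb, while the only H3K4me3 peak of WT over Flt1 was that at the start. A further KO-only H3K4me3 peak, of 131 bp at 9.20 kb, lay on no H3K4me1 or H3K27ac peak. H3K27ac gave 15 peaks in KO and 22 in WT, with 13 shared in each list, so that 9 peaks were WT only and 2 KO only. The WT-only peaks over Flt1 ranged from 118 to 378 bp. H3K27me3 lay on the start, in KO peaks of 331 and 131 bp and a WT peak of 482 bp, and on the region at 67.8 kb, with 530 bp in KO and 277 bp in WT. Both places also carried H3K27ac in both genotypes.

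Flt4, at chr11:49609679-49652739 on the plus strand, had, like Vegfa, no H3K4me1 peak in 1 genotype only: all 6 KO peaks and all 7 WT peaks were shared. They covered 3722 bp in KO and 3124 bp in WT. H3K27ac was in both genotypes at 3 of the 6 regions away from starts and in KO only at 1, centred 12.5 kb into the gene. The KO-only peaks of H3K4me3 and H3K27me3 lay together at a single region, chr11:49613324-49613948, centred at 3.96 kb. It had H3K4me1 and H3K27ac in both genotypes, and in KO alone an H3K4me3 peak of 165 bp and an H3K27me3 peak of 175 bp that overlapped it. The H3K27me3 peak was the only one over Flt4 in either list, and a peak in KO only was found at 15.7% of all genes with H3K27me3.

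**Figure D2:**
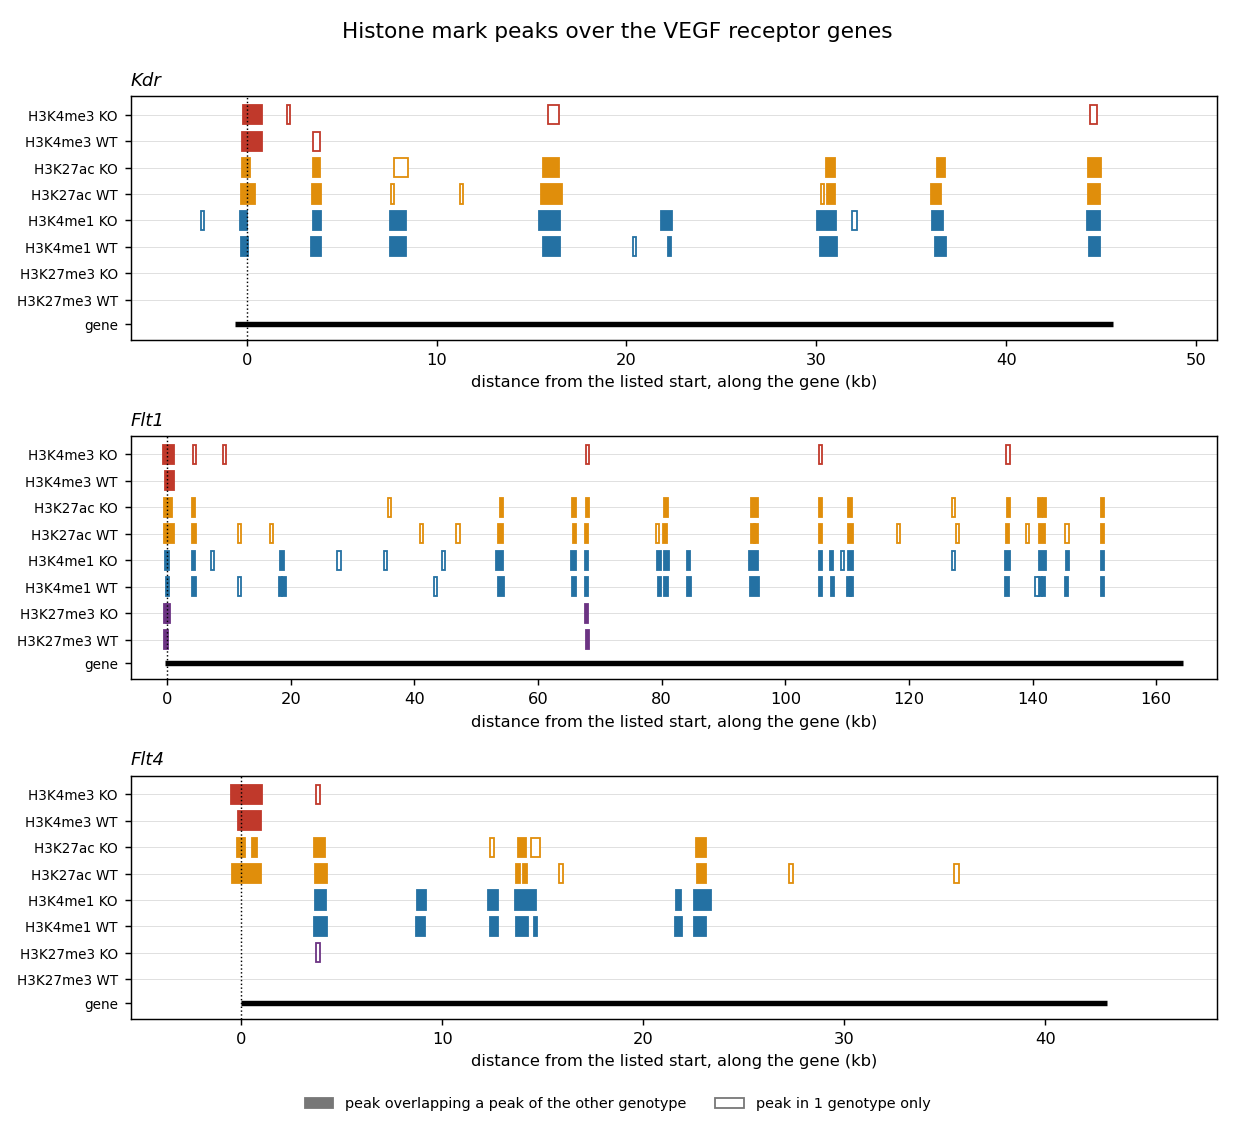
Peaks of the 4 marks in KO and WT over Kdr, Flt1 and Flt4, by distance from the listed start along the gene (horizontal axis, kb), with KO above WT for each mark, filled boxes for peaks that overlap a peak of the other genotype and open boxes for peaks in 1 genotype. Very narrow peaks are drawn at a minimum width. Open H3K4me3 boxes of KO stand over filled H3K27ac and H3K4me1 boxes, as at 68.0, 106 and 136 kb in Flt1.

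Nrp1, at chr8:128358591-128505476 on the plus strand, encodes the co-receptor that binds VEGF-A together with VEGFR2. It held 15 H3K4me1 peaks in KO and 14 in WT, with 9 and 10 shared, and 8732 and 6094 bp covered. The shared H3K4me1 region at 92.3 kb held a single peak of 1927 bp in KO and peaks of 668 and 320 bp in WT. Of 18 regions away from starts, 6 had H3K4me1 and H3K27ac in both genotypes, and KO alone had H3K4me3 on 2 of them, in peaks of 294 bp at 28.4 kb and 248 bp at 78.6 kb. Another KO-only H3K4me3 peak, of 170 bp at 4.35 kb, lay on H3K4me1 without H3K27ac. KO also had H3K4me3 of 559 bp at -1.75 kb, upstream of the start and beside the listed start of a noncoding gene, where WT alone had an H3K27me3 peak of 210 bp. It was the only H3K27me3 peak over Nrp1, and of all genes with the mark 6.53% had it in WT only. H3K27ac at that place was found in both genotypes, with 927 bp in KO and 664 bp in WT. H3K27ac gave 9 peaks in KO and 15 in WT over the gene, and 8 in each list were shared. The only WT-only H3K4me3 peaks of the 7 genes other than that of Kdr were at Nrp1, 294 bp at 2.33 kb and 218 bp at 127 kb, on no other mark.

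Nrp2, at chr1:62703317-62818692 on the plus strand, encodes the co-receptor that pairs with VEGFR3 and is prominent in lymphatic and venous endothelium. Its H3K4me3 lay at the start and again at 3.20 kb, where peaks of 761 bp in KO and 880 bp in WT coincided with H3K27ac, H3K4me1 and H3K27me3 of both genotypes. KO alone had H3K4me3 at -2.12 kb (139 bp) and 21.4 kb (286 bp), both on regions with H3K4me1 and H3K27ac in both genotypes. H3K4me1 covered 4319 bp in KO and 3020 bp in WT, and the KO peaks at 33.7 and 39.1 kb were 914 and 439 bp wide, against 111 and 113 bp in WT. At the start itself no H3K4me1 peak was listed in KO, against a peak of 521 bp in WT. H3K27me3 covered 952 bp in KO and 1353 bp in WT, fewer in KO, as at 23.9% of all genes with the mark.

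Vegfa, at chr17:46016993-46032377 on the minus strand, is the shortest of the 7 genes, and its KO over WT ratios were the most extreme of the 7 for H3K27ac (0.557) and, among the 4 genes with H3K27me3 in both, for that mark (8.15). H3K4me3, H3K27ac and H3K4me1 gave 3 peaks each in both genotypes, and all were shared. H3K4me3 and H3K27ac lay at the start, just inside the gene and at an inner region centred at 4.75 kb (chr17:46027139-46028109). H3K4me1 lay on the same inner region and at -4.15 and 19.8 kb, on no other mark. H3K4me3 at this inner region was 464 bp wide in KO and 162 bp in WT, and that just inside the gene was 889 bp in KO, where it reached the WT peak of the start, and 391 bp in WT. H3K27ac at the inner region was 735 bp in KO and 1089 bp in WT. H3K27me3 covered 913 bp in KO and 112 bp in WT: the peak at the start was 549 bp wide in KO and 112 bp in WT, and a KO-only peak of 364 bp lay on the inner region. Over the whole window H3K4me3 covered 2418 bp in KO and 1458 bp in WT, and H3K27ac 1203 and 2160 bp.

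Vegfc, at chr8:54077532-54186454 on the plus strand, had its only H3K4me3 and H3K27me3 peaks, and its only shared H3K27ac peak, at the start. There it had H3K4me3 of 1398 bp in KO and 1332 bp in WT, H3K27ac of 1658 and 1634 bp, and H3K27me3 of 1157 and 1173 bp, each a single shared peak whose KO over WT ratio lay between 0.986 and 1.05. No region away from starts had H3K27ac in both genotypes. H3K4me1 gave 3 peaks in KO and 6 in WT, of which 1 was shared, at 84.8 kb, and it covered 1011 and 1656 bp. This was the only gene of the 7 with less H3K4me1 in KO. H3K27ac gave 2 peaks in KO and 6 in WT, and the 5 WT-only ones were 115 to 219 bp wide. Which of the marks shared the same cells cannot be told from peaks of a cell population.

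**Figure D3:**
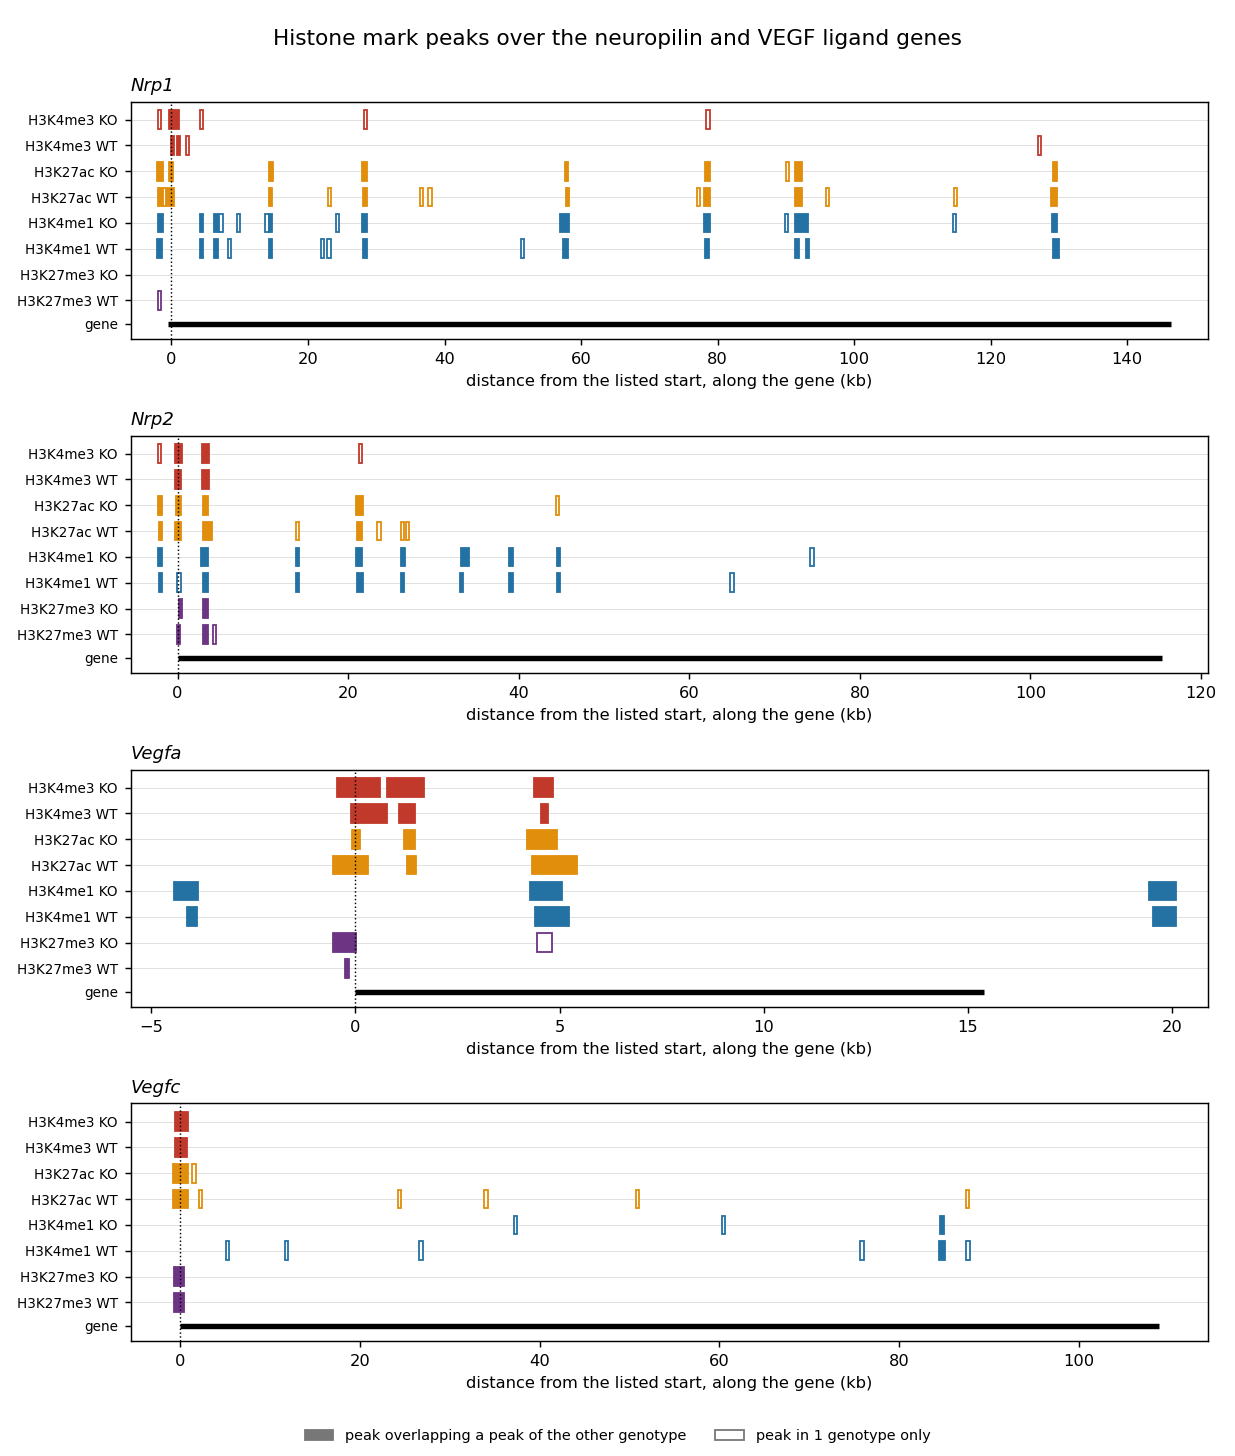
Peaks of the 4 marks in KO and WT over Nrp1, Nrp2, Vegfa and Vegfc, drawn as for the receptor genes, with distance from the listed start in kb. Over Vegfc the filled boxes of H3K4me3, H3K27ac and H3K27me3 sit together at the start, and over Vegfa all boxes but 1 are filled.

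Over whole genes, H3K4me3 covered more in KO at all 7 genes, H3K27ac less in KO at all 7 and H3K4me1 more in KO at 6 of 7. The same directions held for 80.0%, 74.8% and 54.7% of all genes with the marks, and 45.1% had less H3K4me1 in KO, as Vegfc had. Summed over the 7 genes, H3K4me3 covered 15015 bp in KO and 9504 bp in WT, H3K27ac 25831 and 31977 bp, and H3K4me1 39567 and 30393 bp. The median KO over WT ratio of a gene was 1.46 for H3K4me3, 0.791 for H3K27ac and 1.23 for H3K4me1 over the 7 genes, against 1.26, 0.833 and 1.11 over all genes with the mark in both lists. H3K27me3 had no common direction, with 3 genes higher and 3 lower in KO, where 75.9% of all genes with the mark were higher. Its median ratio was 1.15 over the 4 members with the mark in both lists, against 1.40 over all such genes. Its summed length was 4189 bp in KO and 3607 bp in WT, and without Vegfa the ratio of 1.16 became 0.937.

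**Figure D4:**
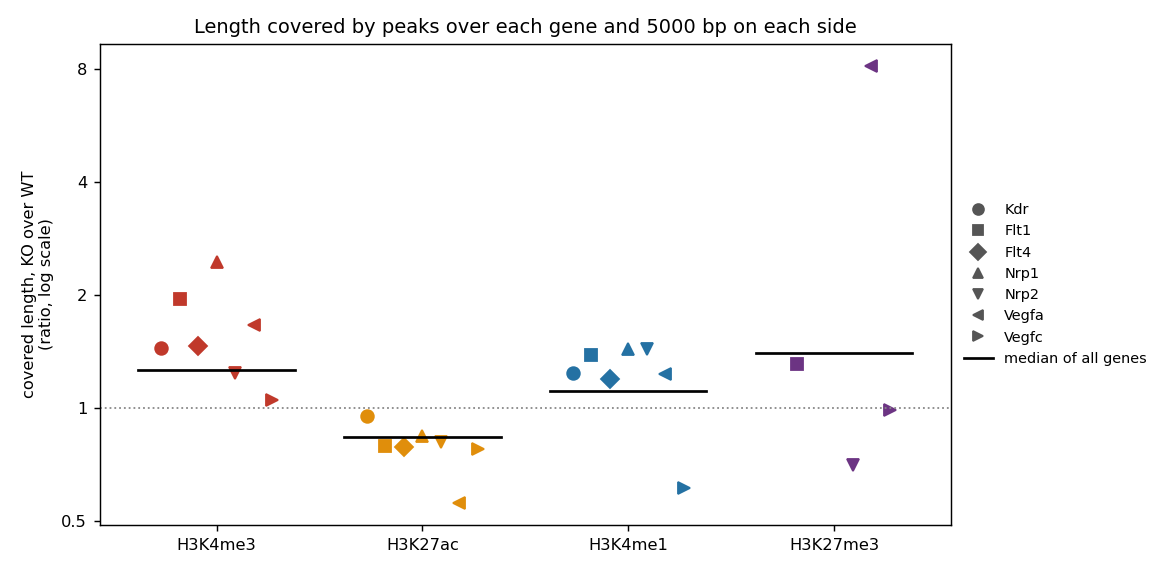
Ratio of the length covered by peaks in KO to that in WT for each gene with 5000 bp on each side (vertical axis, log scale), by mark, with a symbol for each gene and a black line at the median of all genes with the mark in both genotypes. All H3K4me3 symbols lie above 1 and all H3K27ac symbols below 1, and Vegfa stands apart for H3K27me3 at 8.15. That ratio rests on 913 bp in KO and a single narrow WT peak of 112 bp.

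The share of peaks found in both genotypes was lowest for H3K4me3 in KO and H3K27ac in WT, in each case the longer list of the mark. For H3K4me3, 42.3% of the KO peaks over the 7 genes were shared (11 of 26, interval 23.4 to 63.1) and 78.6% of the WT peaks (11 of 14, 49.2 to 95.3). Of all H3K4me3 peaks over protein-coding genes, 59.0% of the KO list and 86.4% of the WT list were shared. For H3K27ac, 83.3% of KO peaks (40 of 48, 69.8 to 92.5) were shared, against 72.1% over all genes, where 27.9% were KO only. Of WT peaks, 56.9% (41 of 72, 44.7 to 68.6) were shared, against 43.6% over all genes, where 56.4% were WT only. The WT share of the 7 genes lay above that over all genes, which was just outside its interval. It was the only 1 of 8 such intervals to leave out the share over all genes. These intervals take peaks of the same gene as independent, so no difference of the 7 genes can be read from it. For H3K4me1, 75.4% of KO peaks (52 of 69) were shared, against 75.2% over all genes, where 24.8% were KO only. In the WT list 79.2% (57 of 72) were shared, against 76.3% over all genes, where 23.7% were WT only. For H3K27me3, 7 of 9 KO peaks (77.8%) were shared, against 56.2% over all genes, where 43.8% were KO only. In the WT list 6 of 8 (75.0%) were shared, against 80.8% over all genes, where 19.2% were WT only. Peaks found in 1 genotype were narrow over these genes, with a median of 237 bp for KO-only H3K4me3 and 176 bp for WT-only H3K27ac, against 920 and 589 bp for the shared peaks of the same lists. Over all genes the medians had the same order, with 207 bp for KO-only H3K4me3 and 165 bp for WT-only H3K27ac, against 818 and 581 bp for shared peaks.

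**Figure D5:**
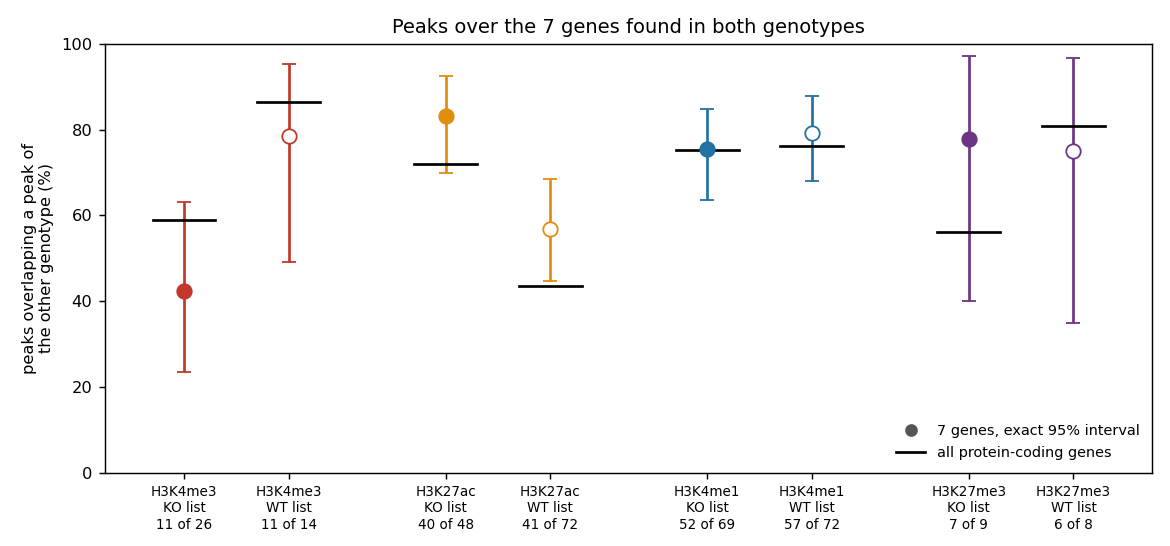
Share of the peaks over the 7 genes that overlap a peak of the other genotype (vertical axis, %), for each list with KO (filled) left of WT (open), with exact 95% intervals as bars and black lines for the share over all protein-coding genes. The H3K4me3 share of KO is the lowest at 42.3%, and of the 8 intervals only that of WT H3K27ac leaves out the share over all genes.

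KO-only H3K4me3 peaks inside or beside the gene were found at 5 of the 7 genes, the 3 receptor and both neuropilin genes, against 43.3% of all genes with H3K4me3 in KO. Among genes with at least 2 H3K4me3 peaks in KO they were found at 5 of 6 members and at 72.7% of all genes. There were 15 such peaks, 106 to 595 bp wide, all more than 1000 bp from the start of their own gene, and no WT H3K4me3 peak lay within 500 bp of any of them. They numbered 5 at Flt1, 4 at Nrp1, 3 at Kdr, 2 at Nrp2 and 1 at Flt4, with none at Vegfa or Vegfc. Of the 14 that also lay away from the listed start of any other gene, 12 overlapped H3K4me1 of both genotypes and 11 H3K27ac of both, against 49.1% and 44.5% of 5462 such peaks over all genes. On H3K27me3 of both genotypes lay 1 of the 14, that of Flt1 at 68.0 kb, against 13.1% over all genes. On H3K27me3 of KO, whether or not of WT, lay 2 of the 14, against 19.3%. The 12 and 11 peaks of 14 were larger shares than those over all genes, while the counts on H3K27me3 were only 1 and 2. All 14 peaks lay over 5 genes, and peaks of the same gene are not independent. No difference of the 7 genes can therefore be read from these counts, and none was tested. Counted by region, 29 regions away from starts over the 7 genes had H3K4me1 and H3K27ac in both genotypes, and 11 of them, 37.9% (interval 20.7 to 57.7), had H3K4me3 in KO only, against 21.1% of 10489 such regions over all genes. The interval includes the share over all genes. When each pair of lists was reduced to equal numbers of the widest peaks, the share was 19.2% (5 of 26, interval 6.55 to 39.4). That interval too includes the share over all genes, 10.9%.

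The states of all regions away from starts were counted in the same way. Of 77 such H3K4me1 regions over the 7 genes, 47 (61.0%) had H3K4me1 in both genotypes, 17 (22.1%) in KO only and 13 (16.9%) in WT only, against 58.4%, 23.6% and 18.0% over all genes. H3K4me3 was in KO only at 12 of the 77 (15.6%, against 9.68%) and in both at 2 (2.60%, against 7.36%). H3K27ac was in both genotypes at 29 regions (37.7%, against 36.8%), in KO only at 4 (5.19%, against 8.64%) and in WT only at 7 (9.09%, against 11.5%). H3K27me3 in either genotype lay on 4 of the 77 regions (5.19%, against 11.5%). The members' shares of H3K4me3 in both and of H3K27me3 were thus below those over all genes, on counts of 2 and 4 regions. Where 1 KO peak met 1 WT peak of H3K4me1, the KO peak was wider in 32 of 47 pairs, by a median factor of 1.15, against 62.8% of pairs and a factor of 1.12 over all genes. For H3K27ac the KO peak was narrower in 19 of 33 pairs, with a median factor of 0.883, where 57.2% of all pairs were narrower. For H3K4me3 the KO peak was wider in 7 of 9 pairs and for H3K27me3 in 3 of 5, against 73.1% and 71.3% of all pairs.

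Per length, Kdr was the most heavily marked of the 7 genes for H3K4me1, which covered 10.9% of its window in KO and 8.82% in WT. Those shares were higher than in 98.4% of protein-coding genes in KO and 98.3% in WT. In KO it was followed by Vegfa (8.05%), Flt1 (7.79%), Flt4 (7.01%), Nrp1 (5.57%), Nrp2 (3.44%) and Vegfc (0.850%). With no spread between samples, neighbours in this order cannot be told apart. For H3K27ac, Kdr led in KO with 7.10% of the window (7.46% in WT), and Vegfa led in WT with 8.51% (4.74% in KO). The genes whose covered length was most like that of a member, by Euclidean distance over the 8 values log2(1 + covered bp) of the 4 marks in KO and WT, were Podxl (0.369) and Smad1 (0.474) for Kdr, where the median gene stood at 16.3. They were Anks1 (0.384) and Ptpn14 (0.626) for Flt1, Clip2 (0.383) and Frmd6 (0.532) for Flt4, Fam171a1 (0.553) and Gna14 (0.564) for Nrp1, Garnl3 (0.656) and Pip5k1c (0.701) for Nrp2, LOC115488016 (0.955) and Dip2c (1.13) for Vegfa, and Atxn7l2 (0.514) and Sp4 (0.597) for Vegfc. Among the members themselves the closest pair was Nrp2 and Vegfc, at 2.41.

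Other genes of the pathway were compared at their annotated ends from a list of 42 genes, of which 40 were among the genes analysed. H3K4me3 was at an end in both genotypes at 32 genes, in KO alone at 4 (11.1% of the 36 with the mark) and in WT alone at 0, against 13.0% and 1.29% of all genes with the mark. The 4 were Vegfb, another VEGF ligand, Src, a kinase that VEGFR2 activates, Nr4a1, a nuclear receptor gene that VEGF induces, and Sema3e, a ligand of the receptor plexin-D1. Sema3e had 748 bp of H3K4me3 over its window in KO and none listed in WT, while Nr4a1 (1545 bp in KO, 1050 bp in WT), Vegfb (1865 and 1322 bp) and Src (1011 and 417 bp) had other H3K4me3 peaks in WT. H3K27ac was in both genotypes at 31 genes. It was in KO alone at 0 genes, and in WT alone at Adamts3, a protease that processes VEGF-C, and at Plxna4, a semaphorin receptor (over all genes 3.76% and 11.0%). Both had H3K27ac elsewhere over their windows in KO, with 245 bp in KO and 687 bp in WT at Adamts3. Plxna4 had 5977 and 9097 bp. H3K27me3 was in both at 22 genes, in KO only at Esm1, Map2k1, Plxnd1 and Src and in WT only at Nos3, the endothelial nitric oxide synthase (over all genes 17.9% and 7.42%). Nos3 also had H3K27me3 in KO farther from its ends, with 271 bp over its window in KO and 311 bp in WT.

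Esm1, a gene of endothelial tip cells that VEGF induces, had 1915 bp of H3K27me3 over its window in KO and none listed in WT, beside 899 and 175 bp of H3K4me3. Src had 2621 bp of H3K27me3 in KO and 298 bp in WT, and no H3K27ac listed in KO against 734 bp in WT. The peak of Plxnd1, which encodes plexin-D1, was narrower, with 329 bp in KO and none listed in WT. H3K4me1 was at an end in KO only at 1 gene, Pgf, a VEGFR1 ligand gene named here after its values were seen, and in WT only at 9 (over all genes 4.81% and 19.5%). Over gene windows H3K4me3 covered more in KO at 36 of 38 genes with the mark and H3K27ac less in KO at 32 of 39, with median ratios of 1.56 and 0.783. Of all genes with the marks, 80.0% and 74.8% went the same way, and the median ratios over all genes were 1.26 and 0.833.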

How the data were processed

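ACT-seq peaks of sorted lung endothelial cells were analysed from 8 lists that the authors deposited, 1 for each genotype and mark. The deposited columns, of the unit class other, hold the position and width of each peak in bp and were used as given. The submitters' processing notes name MACS2 2.1.2.1, deepTools 3.1.1, SAMtools, Bowtie2 2.2.6, cutadapt 1.14 and Trim Galore 0.4.4, and the builds mm10 and R64 (yeast, whose nuclei the protocol adds). What each tool did, the peak threshold and mode, and any pooling of samples are not given in those notes. Depth is unknown, and a longer list can come from deeper libraries. The protocol also lists an H3K9me3 antibody, a mark not analysed here.

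The lists were compared with scipy 1.17.1, pandas 2.3.3 and numpy 2.4.6 in Python 3.11.15, with figures from matplotlib 3.10.9. Gene positions came from GRCm38.p6. Regions away from starts joined the H3K4me1 peaks of KO and WT that lay more than 1000 bp from any listed start, without the 1 chromosome that had no listed starts. Overlap and coverage were checked on simulated lists and by exhaustive search.

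All 7 members were named, as were pathway genes whose H3K4me3, H3K27ac or H3K27me3 at an end differed between the lists, up to 8 a sublist by alphabet, and the 2 genes most like each member, leaving out Gm and Rik symbols. Members, lists and comparisons were chosen with earlier results of these data known. Alternatives changed the overlap, flank, width limit, list length, joining of peaks and window at starts, and left out each gene in turn.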

Additional observations from a re-analysis of the deposited data

How the results depend on the processing

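Of 297 values of 29 results under the alternatives, 288 stayed within the limits set: 1.5 times for counts, 1.5 times and the same side of 1 for ratios of covered length, and the exact interval for shares. With equal numbers of the widest peaks, H3K4me3 had 17 peaks in KO in place of 26, the shared part of the KO list was 64.7% in place of 42.3%, that of WT H3K27ac 73.5% in place of 56.9%, the H3K27me3 ratio of covered length 0.998 in place of 1.16, and KO-only H3K4me3 lay on 19.2% of regions with both enhancer marks in place of 37.9%, an alternative added after seeing the data. That setting shortens the longer list alone. With peaks under 200 bp left out, 71.4% of WT H3K27ac peaks were shared. Within 2000 bp of the start, 4 genes had H3K4me1 in KO in place of 2. Without Nrp2, WT H3K27me3 had 5 peaks in place of 8, and without Vegfa the H3K27me3 ratio was 0.937. The ratio of covered length, KO over WT, ranged from 1.41 to 1.67 for H3K4me3, 0.786 to 0.896 for H3K27ac and 1.26 to 1.38 for H3K4me1 over 11 alternatives each.

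No paired analysis was possible because the lists hold no values per sample, and leaving out replicates was not run for the same reason. Depth is unknown, so a peak missing from a list was not detected there and is not shown to be absent.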
